A study of Mus musculus with 12 samples.

Results

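The genes described here are 39 interferon-stimulated genes (ISGs) in B cells of the intestinal Peyer's patches (PP) of mice after experimental stroke. The list was set by gene name, and each of the 39 names matched 1 row among the 36175 genes of the expression table. RNA-seq was run on PP B cells of 12 male wild-type C57BL/6JHsd mice, aged 10 to 12 weeks. In the 6 stroke mice (labelled brain injury) the middle cerebral artery was closed with a filament for 1 h and then reopened. The 6 sham controls underwent the carotid filament step with no occlusion of the cerebral artery. B cells were purified 18 h after surgery by magnetic depletion of other cells. Because that step leaves some intestinal epithelial and endothelial cells behind, a selection with CD45 beads followed to enrich the B cells further. Each library came from its own mouse.

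Interferons are secreted proteins that cells release on sensing viruses or stray nucleic acids. Type I and type III interferons act through the JAK1 and TYK2 kinases to assemble a complex that contains STAT2 and IRF9 and binds the interferon-stimulated response element (ISRE) in front of ISGs. Type II interferon acts through the gamma-activated site (GAS). The proteins made from ISGs sense foreign RNA and DNA, stop translation, degrade RNA, bar viral entry or feed back on the pathway. The question put to these data was whether PP B cells of stroke mice carry more ISG RNA than those of sham controls.

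The ISRE core was searched as GAAANNGAAA on both strands, with overlapping matches counted, in RefSeq promoter windows of GRCm38.p6 that run from 250 bases before to 50 bases after a transcript start. Windows were found for 30 of the 39 ISGs (34 windows), and 18 of these 34 windows, from 18 genes, held at least 1 match (52.9%). Of all 32851 windows of the same length, 3.44% held one. The stretches below are shown because they carry the element in ISGs whose levels are described later, with the ISRE core in capitals and each sequence written along the gene's own strand. For Irf1 the capitals mark the GAS, TTCNNNGAA. The Isg15 stretch is at chr4:156200855-156200916 on the minus strand and the Oas3 stretch at chr5:120777705-120777754 on the minus strand. The Ifit1 stretch is at chr19:34640765-34640833, the Ifit3 stretch at chr19:34583353-34583436 and the Ifit3b stretch at chr19:34607749-34607832, all on the plus strand. The Gbp7 stretch is at chr3:142530263-142530312, the Gbp3 stretch at chr3:142559979-142560034, the Igtp stretch at chr11:58199502-58199551 and the Irf1 stretch at chr11:53769904-53769952, also on the plus strand. The Eif2ak2 stretch, at chr17:78882535-78882564 on the minus strand, lies inside the first transcribed bases of the gene.
Isg15: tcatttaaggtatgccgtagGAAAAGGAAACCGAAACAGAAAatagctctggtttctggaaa
Oas3: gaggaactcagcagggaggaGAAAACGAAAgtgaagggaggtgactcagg
Ifit1: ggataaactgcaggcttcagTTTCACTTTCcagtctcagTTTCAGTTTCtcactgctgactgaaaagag
Ifit3: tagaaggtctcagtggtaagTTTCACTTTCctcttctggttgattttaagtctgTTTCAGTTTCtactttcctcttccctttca
Ifit3b: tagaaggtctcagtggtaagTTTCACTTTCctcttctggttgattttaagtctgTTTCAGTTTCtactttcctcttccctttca
Gbp7: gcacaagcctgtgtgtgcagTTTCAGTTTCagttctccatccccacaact
Gbp3: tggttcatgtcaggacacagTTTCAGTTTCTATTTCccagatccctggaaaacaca
Igtp: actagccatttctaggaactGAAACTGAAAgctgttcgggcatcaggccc
Eif2ak2: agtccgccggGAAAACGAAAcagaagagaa
Irf1: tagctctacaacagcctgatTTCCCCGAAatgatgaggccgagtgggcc

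The Isg15 window held 3 overlapping matches, the first of which began 78 bases before the transcript start. The Gbp3 window held 2 overlapping matches, and those of Ifit1 and Ifit3 held 2 separate ones each. The printed Ifit3 and Ifit3b stretches differed at 0 of 84 bases. These genes are neighbours on chromosome 19, and their transcripts share much of their sequence too. Of the 31-base words in Ifit3 transcripts, 61.81% also occurred in Ifit3b, so that the split of reads between them is uncertain. The GAS letters were found in 9 of the 34 windows (26.5%) and in 8.3% of all windows. Neither motif was found in the Ifitm7 window, and no window was at hand for Mx1. A match describes the letters of the window and not a bound factor.

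Labels call the deposited values normalized TPM, a measure of transcript abundance that corrects for transcript length. Their totals ran from 559570 in sham mouse 6 to 1404340 in sham mouse 1 rather than to a common sum, and they do not show how many reads each rests on. The 5 highest genes of the table, none of them an ISG of the list, took 10.7% of the total in sham mouse 6 and 42.7% in sham mouse 1. Stroke mouse 6 had values above 0 for 30060 genes, against 20626 to 23947 in the other mice. B cell markers summed to 2608 to 3337 in sham controls and to 1683 to 2994 in stroke mice, with the lowest sum in stroke mouse 5. Intestinal epithelial markers summed to 34.3 to 1595 in sham controls and to 31.4 to 833 in stroke mice. In bulk samples such as these, fewer cells of a type and less RNA per cell cannot be told apart.

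Most ISGs were expressed at low to moderate levels in PP B cells of both groups. TPM-like values are scaled to transcript length, so that levels can be ranked across genes. Irf1, a transcription factor that drives many ISGs, had the highest mean level of the list over all mice, at 88.4. Trim25, a ubiquitin ligase of the RIG-I pathway, followed at 81.9 and Ddx58, the RNA sensor RIG-I, at 76.7. The order differed within groups. Trim25 (89.3) was above Irf1 (82.95) in stroke mice, and Ddx58 (81.1) was above Trim25 (74.5) in sham controls. Of the 39 ISGs, 4 had a mean above 50 and 15 had a mean below 5. Ifit3b at 0.716 and Ifi44 at 0.722 had means below 1 and were not tested, which left 37.

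Between groups, 5 of the 37 ISGs were higher in stroke mice than in sham controls and 0 were lower, at an unadjusted p below 0.05 in a limma fit of log2(value + 0.5) over 15624 genes. The 5 were Ifitm7, Mx1, Gbp7, Eif2ak2 and Ifit3, with log2 fold changes of 0.42 to 0.77. In that fit 4.29% of all genes were higher and 1.6% were lower. After Benjamini-Hochberg adjustment over all genes none of the 37 passed, the lowest adjusted p from limma being 0.789. In the same fit 1 gene of the whole table passed. The median log2 fold change of the 37 ISGs was -0.04, against 0.01 for all genes. Fold changes were above 0 for 16 ISGs and below 0 for 21, and 20 lay within 0.2 of 0. The values of the 2 groups overlapped for each of the 39 ISGs, whereas all stroke mice exceeded all sham controls for 0.346% of the genes tested and lay below them for 0.0704%.

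**Figure D1:**
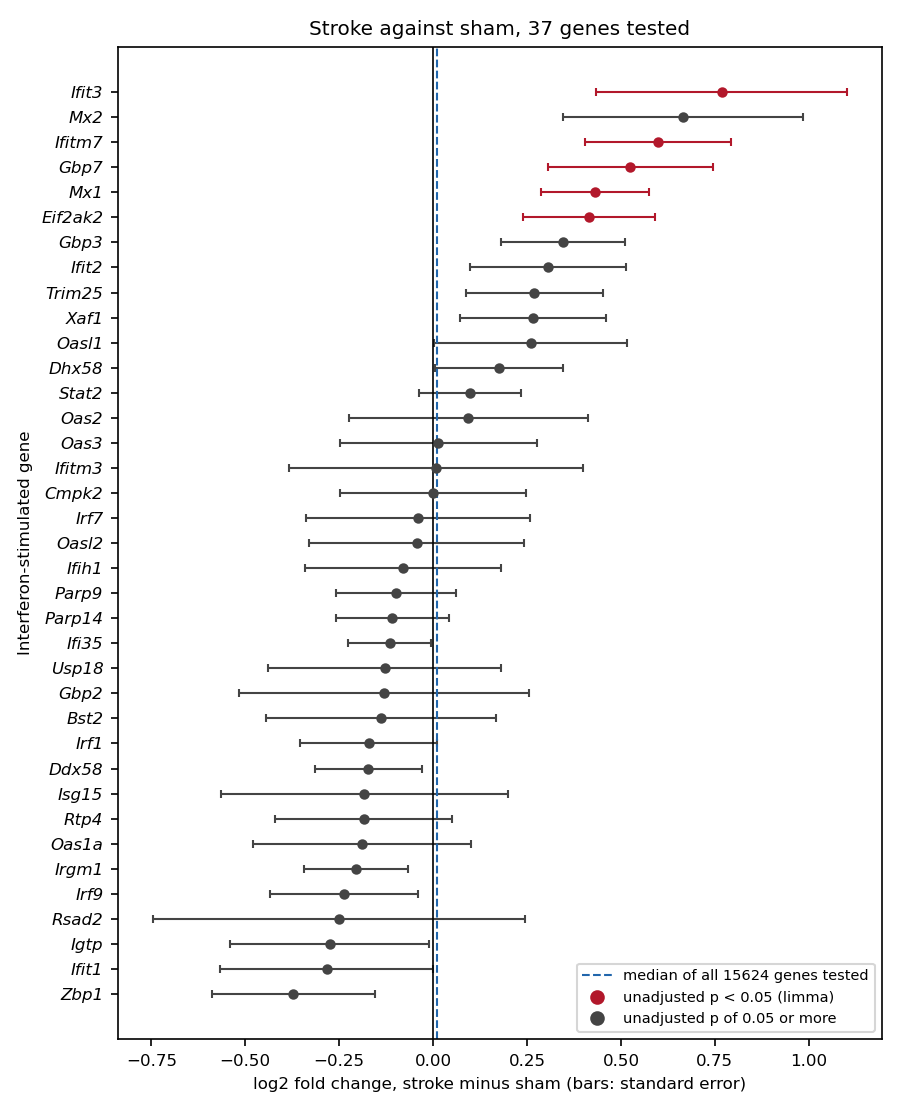
Log2 fold change of each of the 37 ISGs tested, stroke minus sham, on the log2(value + 0.5) scale, with bars for the standard error of the limma fit. Red points mark the 5 genes with an unadjusted p below 0.05, the dashed line marks the median of all 15624 genes (0.01), and 20 of the 37 points lie within 0.2 of 0.

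Among the antiviral effectors, Ifitm7 and Mx1 were higher in stroke mice. Ifitm7 belongs to the interferon-induced transmembrane family, whose best known members bar the entry of enveloped viruses. Its values had a lowest, median and highest of 12.8, 17.6 and 26.0 in sham controls and of 18.5, 26.2 and 36.95 in stroke mice. Each of the 6 stroke mice lay above the sham mean of 17.6 ± 4.63 (SD, n = 6), and 3 of them lay above the highest sham control. Its log2 fold change was 0.60 ± 0.19 (SE), with an unadjusted limma p of 0.00895, an adjusted limma p of 0.789 and an exact two-sided permutation p of 0.0217. Ifitm7 (GRCm38 chr16:13981699-13986888, minus strand) overlaps 2900011O08Rik on the other strand, and 9.66% of its 31-base words also occur in transcripts of that gene.

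Mx1 encodes a GTPase that traps viral ribonucleoproteins, although the allele of C57BL/6 mice carries a deletion that removes its function. Its values had a lowest, median and highest of 6.17, 8.39 and 9.82 in sham controls and of 8.93, 11.5 and 13.6 in stroke mice. Of the 6 stroke mice, 5 lay above every sham control, and only stroke mouse 4 fell within their range. Mx1 had a log2 fold change of 0.43 ± 0.14 (SE), with an unadjusted limma p of 0.0108, an adjusted limma p of 0.789 and an exact two-sided permutation p of 0.00866. Its neighbour Mx2, annotated as a polymorphic pseudogene, had means of 3.43 ± 2.07 in sham controls and 5.30 ± 1.81 in stroke mice (SD, n = 6 each; limma p of 0.0586, exact permutation p of 0.0866). The other 4 effectors did not pass the test, with log2 fold changes of -0.25 to 0.01. They were Rsad2 (viperin, which makes a chain-terminating nucleotide), Cmpk2 (a mitochondrial nucleotide kinase), Bst2 (tetherin, which holds budding virions at the cell surface) and Ifitm3. Rsad2 stood at 6.77 in sham mouse 2 and at 1.33 or less in the other 11 mice. Its medians were 0.528 in sham controls and 0.551 in stroke mice. Its mean reached 1 only with sham mouse 2, so that its place among the 37 tested rests on that mouse.

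Among the nucleic acid sensors, 1 of 5 was higher in stroke mice. Eif2ak2 encodes PKR, a kinase that binds double-stranded RNA and halts translation. Its values had a lowest, median and highest of 20.4, 24.0 and 30.99 in sham controls and of 27.6, 30.8 and 54.5 in stroke mice. Stroke mouse 5, at 54.5, stood well above the other stroke mice, whose highest value was 32.8. Eif2ak2 had a log2 fold change of 0.42 ± 0.18 (SE), with an unadjusted limma p of 0.0360, an adjusted limma p of 0.789 and an exact two-sided permutation p of 0.0260. Without stroke mouse 5 the log2 fold change was 0.27, with an unadjusted limma p of 0.0562. Ddx58 (RIG-I) had a lowest, median and highest of 63.9, 86.4 and 90.2 in sham controls and of 55.3, 75.3 and 86.0 in stroke mice. Its groups overlapped widely, and its log2 fold change of -0.17 did not pass the test (limma p of 0.246, exact permutation p of 0.204). Zbp1, a sensor of left-handed nucleic acids that can start necroptosis, had the most negative fold change of the list. None of the 6 stroke mice (14.0 to 23.9) exceeded the sham mean of 24.1 ± 7.55 (SD, n = 6), but the sham controls themselves ran from 15.7 to 35.5. Its log2 fold change was -0.37 ± 0.22 (SE, limma p of 0.112, exact permutation p of 0.128). Without sham mouse 6 it was lower at a limma p of 0.0425, in a fit where 1302 of all 15622 genes were lower. Ifih1 (the RNA sensor MDA5) and Dhx58 (the regulatory helicase LGP2) did not pass either, with log2 fold changes of -0.08 and 0.18.

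Of the interferon-inducible GTPases, which act on the membranes around intracellular pathogens, 1 of 5 was higher. Gbp7, a guanylate-binding protein, had a lowest, median and highest of 3.502, 6.32 and 8.14 in sham controls and of 6.56, 7.97 and 13.1 in stroke mice. Of the 6 stroke mice, 3 lay above every sham control. Gbp7 had a log2 fold change of 0.53 ± 0.22 (SE), with an unadjusted limma p of 0.0330, an adjusted limma p of 0.789 and an exact two-sided permutation p of 0.0411. Gbp3 was close to the threshold, with means of 12.9 ± 2.61 in sham controls and 16.5 ± 2.91 in stroke mice (SD, n = 6 each; limma p of 0.0564, exact permutation p of 0.0455). Gbp2, Igtp and Irgm1, the last of them an immunity-related GTPase that restrains others of its family, had log2 fold changes of -0.28 to -0.13 and did not pass. Of the 31-base words of Gbp7, 10.81% also occur in the pseudogene Gm43802 within it, and 15.94% of those of Igtp occur in the overlapping gene Irgm2.

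The IFIT family, whose proteins bind viral RNA that lacks the host cap, had 1 of 3 tested genes higher. Ifit3 had a lowest, median and highest of 1.14, 1.93 and 3.504 in sham controls and of 1.497, 4.17 and 6.31 in stroke mice. Stroke mice 1, 2 and 5 lay above every sham control, and stroke mouse 4 lay among the lower sham values. For Ifit3 the log2 fold change was 0.77 ± 0.33 (SE), with an unadjusted limma p of 0.0401, an adjusted limma p of 0.789 and an exact two-sided permutation p of 0.0584. Since Ifit3 and Ifit3b share sequence, their values were also summed. The sum was 2.69 ± 1.27 in sham controls and 5.11 ± 2.01 in stroke mice (SD, n = 6 each), a log2 difference of 0.82 with an exact permutation p of 0.0476. Ifit2 and Ifit1 did not pass, with log2 fold changes of 0.31 and -0.28. Ifit1 was at 8.22 in sham mouse 2 and at 3.73 or less in the other mice.

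**Figure D2:**
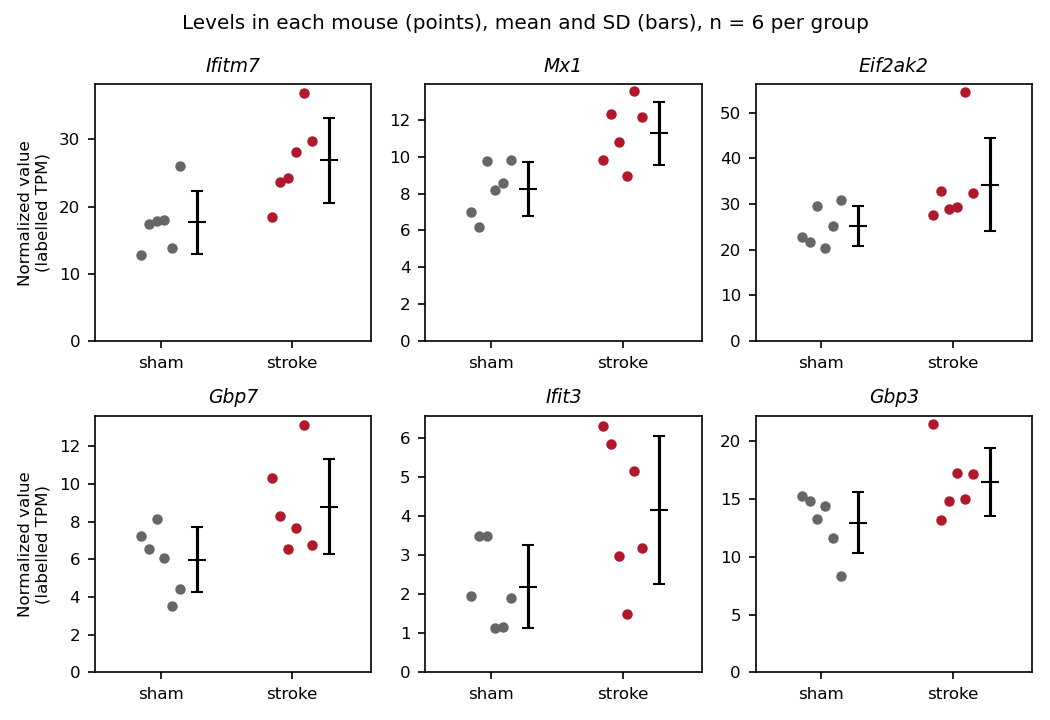
Normalized values of the 5 ISGs with an unadjusted limma p below 0.05 and of Gbp3 in each mouse. Points are mice, the short line is the group mean and the bar its SD (n = 6 per group, axes start at 0); stroke mice sit higher as a group in each panel, and the 2 groups overlap in each.

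None of the 4 transcription factors that carry the interferon signal passed the test. Irf7, the factor that amplifies type I interferon production and itself an ISG, had a lowest, median and highest of 8.87, 13.5 and 22.4 in sham controls and of 5.76, 14.2 and 19.5 in stroke mice. The log2 fold change was -0.04 ± 0.30 (SE; limma p of 0.897, exact permutation p of 0.903), and its sign turned with the scaling (0.08 after rescaling each mouse to 1000000). Irf9, the DNA-binding subunit of the complex with STAT2, had values of 33.4, 39.3 and 50.4 in sham controls and of 19.9, 37.1 and 46.0 in stroke mice (lowest, median and highest). Stroke mouse 5 was the lowest of the 12 mice for Irf7 and for Irf9. The log2 fold change of Irf9 was -0.24 ± 0.20 (SE; limma p of 0.252, exact permutation p of 0.288). Stat2 had values of 52.3, 62.4 and 75.9 in sham controls and of 57.3, 63.9 and 89.2 in stroke mice, and here stroke mouse 5 was the highest of all. Its log2 fold change was 0.10 ± 0.14 (SE; limma p of 0.479, exact permutation p of 0.455). Irf1 had values of 65.1, 93.0 and 130 in sham controls and of 63.5, 81.2 and 110 in stroke mice. The log2 fold change was -0.17 ± 0.18 (SE; limma p of 0.362, exact permutation p of 0.359).

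No gene of the remaining role groups passed the test in either direction. In the ISG15 pathway, Trim25 had a lowest, median and highest of 46.9, 76.7 and 93.2 in sham controls and of 76.6, 80.1 and 126 in stroke mice. The log2 fold change was 0.27 ± 0.18 (SE; limma p of 0.166, exact permutation p of 0.188). Isg15, a ubiquitin-like modifier that is among the most strongly interferon-induced genes, averaged 7.21 ± 5.45 in sham controls and 5.45 ± 2.21 in stroke mice (SD, n = 6 each; exact permutation p of 0.682). The highest Isg15 value of the 12 mice, 17.6, belonged to a sham control (mouse 2). Usp18, which removes ISG15 and blocks the type I receptor, averaged 26.2 ± 3.895 and 26.1 ± 10.4 (SD, n = 6 each). In the OAS family, whose active members make the second messenger for RNase L, the 5 log2 fold changes ran from -0.19 (Oas1a) to 0.26 (Oasl1). Oas1a shares 68.73% of its 31-base words with Oas1g, so that its value is uncertain. The ADP-ribosyltransferase family members Parp9 and Parp14 had log2 fold changes of -0.10 and -0.11. Among the other interferon-induced genes, Ifi35, Rtp4 and Xaf1 had log2 fold changes of -0.12, -0.19 and 0.27, and Ifi44 ranged from 0.43 to 0.979 over the 12 mice.

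The 5 calls depended on the scaling and on single mice. When each mouse was rescaled to a sum of 1000000, the median log2 fold change of all genes moved to 0.13 and that of the 37 ISGs to 0.08, and 24 ISGs lay above 0. The higher ISGs were then Gbp3, Gbp7 and Ifit3 (8.11% of 37, against 2.81% of all genes). Ifitm7, Mx1 and Eif2ak2 no longer passed, while their fold changes moved up with those of all genes and their standard errors rose. Ifitm7 stood at 0.72 ± 0.34 (SE; limma p of 0.0549), Mx1 at 0.55 ± 0.29 (0.0835) and Eif2ak2 at 0.54 ± 0.31 (0.1095). With median-of-ratios scaling 5 ISGs were higher (13.5%, against 3.26% of all genes), Gbp3 taking the place of Eif2ak2. Of all genes called, 58.8% were then higher, against 72.8% as deposited. Ifitm7 and Mx1 had an unadjusted limma p below 0.05 in each of the 12 fits that left out 1 mouse, Gbp7 in 8, and Eif2ak2 and Ifit3 in 5 each. The number of higher ISGs was 3 (8.11%) without sham mouse 4 or stroke mouse 1, where 3.68% and 4.54% of all genes were higher. It was 2 (5.41%) without sham mouse 5, close to the 4.23% of all genes, and 2 without stroke mouse 5, where 3.21% of all genes were higher. Gbp7 was not called without sham mice 5 or 6 or stroke mice 1 or 5. Eif2ak2 was not called without sham mice 1, 2, 4 or 5 or stroke mice 2, 5 or 6, and Ifit3 not without sham mice 1, 4, 5 or 6 or stroke mice 1, 2 or 5. Without sham mouse 6, 1119 of 15622 genes were higher (7.16%) and 1302 lower, in place of 670 and 250. In that fit 4 of 37 ISGs (10.8%) were higher (Eif2ak2, Ifitm7, Mx1 and Mx2) and 1 (Zbp1) was lower.

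**Figure D3:**
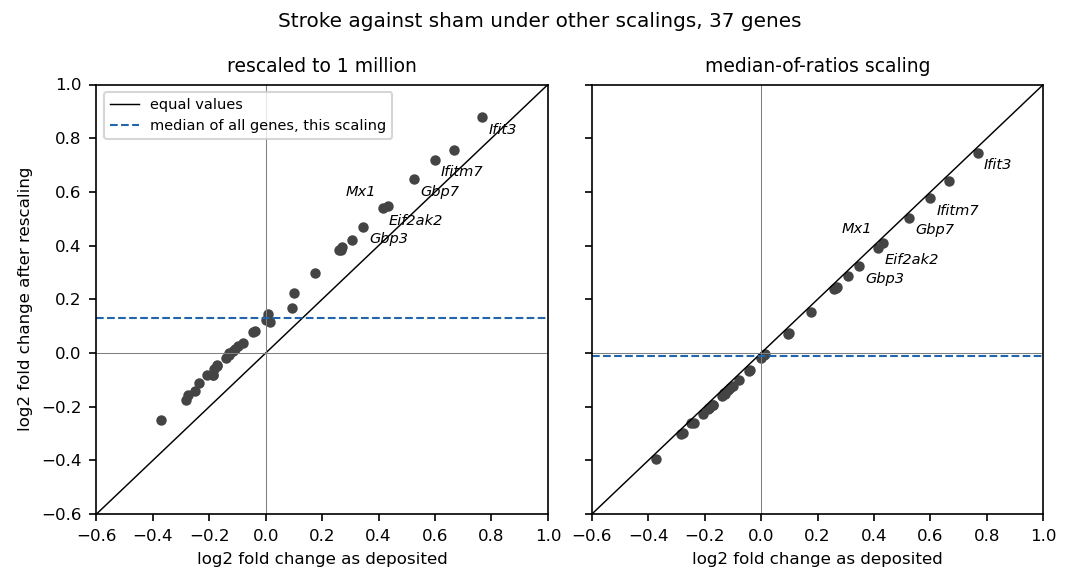
Log2 fold changes of the 37 ISGs after rescaling each mouse to 1000000 (left) and after median-of-ratios scaling (right), plotted against those of the deposited values. The solid line marks equal values and the dashed line the median of all genes under that scaling (0.13 and -0.01); the order of the genes is nearly kept while all points move up on the left.

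Markers of other cells gave single calls, and their part in these results was not tested. Of the genes tested, 1 of 5 plasmacytoid dendritic cell genes and 1 of 11 dendritic cell and macrophage genes were higher. No T cell, neutrophil, epithelial, endothelial or plasma cell marker was called, while 4.29% of all genes were higher and 1.6% lower. Of the plasmacytoid dendritic cell list, 4 of 5 tested genes had fold changes above 0. Smim5 was higher (5.47 ± 1.27 against 7.67 ± 0.647, SD, n = 6 each; exact permutation p of 0.00649), and the defining marker Siglech ran from 1.01 to 4.44 in sham controls and from 2.46 to 3.72 in stroke mice. The summed level of that list went the other way, with a median of 241 (105 to 301) in sham controls and of 148 (83.5 to 242) in stroke mice. Of the 11 dendritic cell and macrophage genes tested, 4 lay above 0 and 7 below, with a median log2 fold change of -0.07. Flt3 was higher (9.63 ± 2.08 against 13.7 ± 1.62, SD, n = 6 each, exact permutation p of 0.00649). The list summed to 66.8 to 396 in sham controls and to 74.1 to 229 in stroke mice. Of the 9 B cell markers, 1 was lower (Cr2, 258 against 158 on average, unadjusted limma p of 0.0196). All 8 intestinal epithelial markers had fold changes below 0, with a median of -1.42 on the log2 scale, and none passed the test. T cell markers summed to 86.6 to 160 in sham controls and to 73.8 to 187 in stroke mice, neutrophil markers to 4.71 to 7.34 and 4.74 to 9.62, endothelial markers to 84.2 to 110 and 92.0 to 114, and plasma cell markers to 295 to 1487 and 372 to 1086. No gene of these lists was at 0 in all 12 mice.

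For 30 of the 37 ISGs the SD of log2 values within groups exceeded the size of the log2 fold change. Sham mouse 2 had the highest value of the 12 mice for 14 of the 39 ISGs (35.9%), among them Isg15, Ifit1, Rsad2, Irf1, Irf7 and Igtp, and for 18.6% of all genes tested. Stroke mouse 5 had the lowest value for 15 ISGs (38.5%) and the highest for 8 (20.5%), against 16.1% and 17.3% of all genes. The ISGs highest in stroke mouse 5 included Eif2ak2, Ifitm7, Mx1, Gbp7, Stat2 and Trim25. Epithelial markers summed to 1562 in sham mouse 2 and to 1595 in sham mouse 1, which was highest for 2 ISGs. The B cell marker sum of 1683 in stroke mouse 5 was the lowest of the 12. The part of these markers in the ISG pattern was not tested. Sham mouse 2 and stroke mouse 5 were then both left out, a choice made after the values were seen. This choice by itself tends to raise the fold changes of genes highest in sham mouse 2 or lowest in stroke mouse 5. Those of Eif2ak2, Mx1, Ifitm7 and Gbp7, highest in stroke mouse 5, fell to 0.24, 0.30, 0.50 and 0.44. Rsad2 no longer reached a mean of 1, and 30 of the remaining 36 ISGs lay above 0. Their median was then 0.17, against 0.04 for all genes. Gbp3, Ifit3, Ifitm7 and Mx1 were higher (4 ISGs, 11.1%, against 2.88% of all genes), and Eif2ak2 and Gbp7 were not called. With median-of-ratios scaling sham mouse 2 was highest for 13 ISGs, and stroke mouse 5 lowest for 15 and highest for 8, nearly as deposited. After rescaling to 1000000, sham mouse 2 was highest for 3, sham mouse 6 for 16, and stroke mouse 5 was lowest for 7 and highest for 4.

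**Figure D4:**
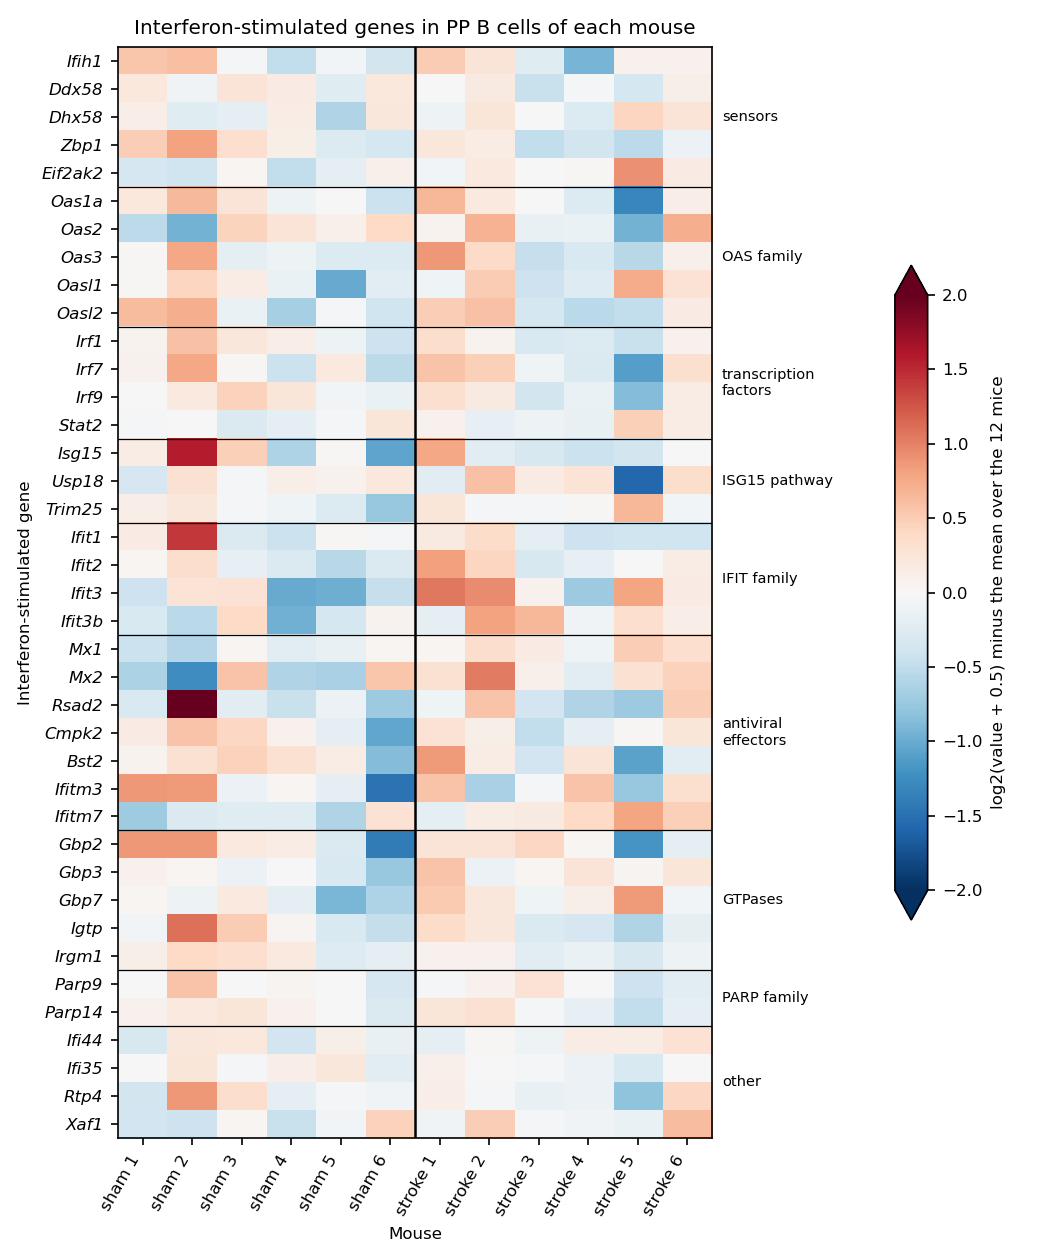
Log2(value + 0.5) of each of the 39 ISGs in each mouse, minus the gene's mean over the 12 mice, with genes ordered by role and the vertical line between sham controls and stroke mice. Sham mouse 2 is red for many genes (Rsad2 exceeds the colour scale), stroke mouse 5 is blue for many and red for Eif2ak2, Ifitm7 and Gbp7, and no block of genes is red in all stroke mice.

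The spread among mice of a group also differed between ISGs. The SD of log2(value + 0.5) within groups ran from 0.155 for Ifi35 to 0.942 for Rsad2, and it was below 0.25 for 7 of the 39 and below 0.5 for 26. After subtraction of group means, Irf1 (Pearson r of 0.949), Zbp1 (0.948), Igtp (0.931), Oas3 (0.877) and Irgm1 (0.866) followed the mean of the other ISGs most closely over the 12 mice in the deposited values. After rescaling to 1000000, Igtp (0.728) and Oas3 (0.682) fell behind. There Irf1 (0.931), Irgm1 (0.908), Irf9 (0.879), Parp14 (0.836) and Zbp1 (0.824) were closest to that mean. Ifitm7 (-0.511), Eif2ak2 (-0.458), Mx1 (-0.417) and Stat2 (-0.334) ran against it in the deposited values and with median-of-ratios scaling (-0.466, -0.449, -0.409 and -0.484). After rescaling to 1000000 these 4 ran with it (0.571, 0.529, 0.643 and 0.525), while Ifitm3 (-0.427) and Gbp2 (-0.289), positive under the other 2 scalings, ran against it. Over the 666 pairs of ISGs the median correlation was 0.34, with 67.9% above 0, against 0.02 and 51.5% for all pairs of genes tested. With median-of-ratios scaling the ISG pairs had a median of 0.28, with 66.4% above 0, against -0.001 and 49.9% for all pairs. After rescaling to 1000000 the median was 0.371 for ISG pairs and 0.367 for all pairs, with 81.1% and 72.1% above 0, so that the medians hardly differed under that scaling. These correlations describe 12 libraries whose genes share library composition and scaling. Of the genes outside the list, those most like the ISG mean by this measure included Zfp764, Arhgef3, Dcaf11, Tvp23b, Gmppb, Crebl2, Zfp36l1, Upp1 and Gapt, with r from 0.954 (Zfp764) to 0.897 (Gapt).

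**Figure D5:**
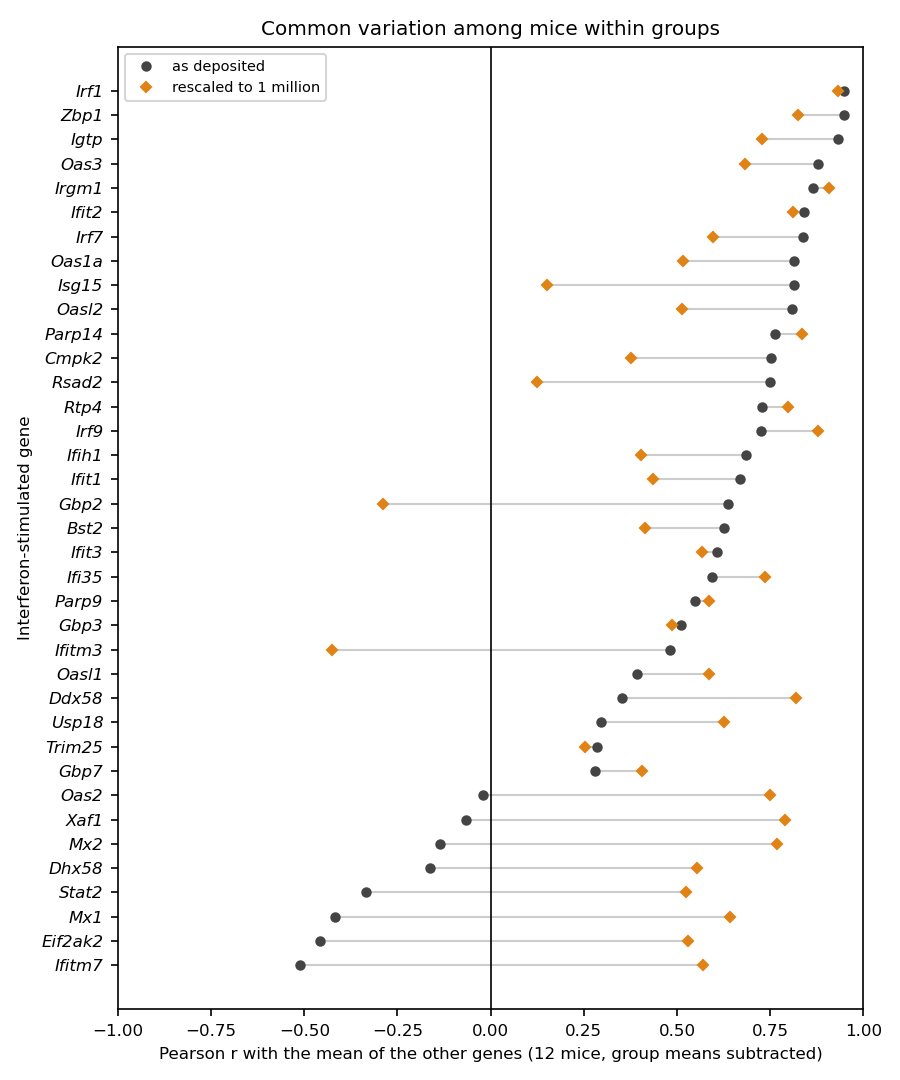
Pearson correlation of each of the 37 ISGs with the mean of the other ISGs over the 12 mice after subtraction of group means, for the deposited values (circles) and after rescaling each mouse to 1000000 (diamonds). Irf1 is at the top with 0.949, and the 4 genes at the bottom (Ifitm7, Eif2ak2, Mx1 and Stat2) move from below 0 to above 0.

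Genes with and without the ISRE letters were among those that were higher. Of the 18 ISGs with a match, 17 were tested, 3 were higher (Eif2ak2, Gbp7 and Ifit3) and the median log2 fold change was -0.13. Of the 12 whose window held no match, 11 were tested, 1 was higher (Ifitm7) and the median was -0.00069. No test was made of this split, and the windows do not cover elements farther from the start.

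Calls among other genes of the interferon pathway are set beside those of all genes, of which 4.29% were higher and 1.6% lower. Of the 21 interferon genes, 3 were listed at 0 in all mice, and only Ifna16 and Ifnk reached a mean of 1, neither of them called. Ifnb1 and Ifna1, both listed above 0 in a single mouse (stroke mouse 1), stood there at 0.413 and 0.204. Another 9 interferon genes were above 0 in stroke mouse 6 alone, the library with the most genes above 0, at 0.0339 to 0.252. Ifnk overlaps Mob3b, and reads of the 2 genes may not be separable. Of 10 genes for interferon receptors and the signalling proteins beneath them, 0 were called, 3 lay above 0 and 7 below, and the median log2 fold change was -0.13. Ifnar1, a chain of the type I receptor, averaged 38.0 ± 3.34 in sham controls and 34.5 ± 2.94 in stroke mice (SD, n = 6 each; exact permutation p of 0.0996). Of the 16 upstream sensors, adaptors and kinases tested, 0 were called. In lists as short as these 2, 0 calls is near the shares of all genes.

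Of 18 negative regulators of the pathway, 1 was higher, a share near the 4.29% of all genes. Cactin, a splicing-associated protein that dampens innate signalling, averaged 32.7 ± 5.003 in sham controls and 41.3 ± 5.45 in stroke mice (SD, n = 6 each; exact permutation p of 0.0217). Of 83 further interferon-induced genes tested, 3 were higher and 0 lower, a share below the 4.29% of all genes, and the median log2 fold change was -0.01. Gbp9 averaged 45.3 ± 10.7 in sham controls and 68.8 ± 16.9 in stroke mice (SD, n = 6 each; exact permutation p of 0.00866). Tgtp1 averaged 3.06 ± 1.03 and 5.27 ± 1.65, but 83.22% of its 31-base words also occur in Tgtp2, which was not called. Apobec3, a cytidine deaminase that restricts retroviruses, averaged 477 ± 33.7 and 560 ± 28.5 (SD, n = 6 each). Its 2 groups did not overlap, with stroke mice on top (exact permutation p of 0.00216, the smallest this design allows). The same held for 0.346% of all genes tested. The adjusted limma p was 0.789 for each of Cactin, Gbp9, Tgtp1 and Apobec3.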

How the data were processed

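RNA was measured in PP B cells of 6 sham controls and 6 stroke mice, grouped by the sample labels. Per the submitters' notes and methods, the authors checked reads with FastQC, trimmed them with Trimmomatic 0.39, quantified them with kallisto 0.48.0 on GRCm38 (Ensembl release 102) and used sleuth 0.30.0 in R 4.1.2. The deposited table holds 1 normalized signal per gene and mouse, labelled TPM; its column totals differ, no counts are given, and how the scaling was done is not given in the sources used here. Depth is therefore unknown and no counting intervals are given.

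Here, log2(value + 0.5) was fitted with limma 3.58.1 (R 4.3.3) for the 15624 genes with a mean of at least 1 over the 12 mice, stroke against sham without covariates, and p-values were adjusted by Benjamini-Hochberg over all of them. A gene is called at an unadjusted p below 0.05, and adjusted p-values are given beside it. The paper's methods name a P below 0.05, while its results count genes by a fold change limit and an adjusted P below 0.05. Single genes were also tested exactly by permutation, over each of the 924 ways to divide the mice. Fold changes on this scale understate those of low genes. The limma p weighs the group difference against the spread between these 12 mice, moderated with all genes tested. The permutation p ranks that difference among the 924 divisions. Alternatives covered the pseudocount, low-value filters, scaling, replicate block, weights and leaving out mice. Positions and shared 31-base words came from GENCODE transcripts of GRCm38, and promoters from RefSeq. Values are printed in every group (lowest, median, highest) for called members, the 3 with the highest mean, Irf7, Irf9, Stat2 and Irf1; other members are given by role, and named pathway genes are those called, to which Ifna16, Ifnk, Ifnb1, Ifna1 and Ifnar1 were added after their values were seen. Members and lists were chosen with earlier results of these data known. Some genes of the marker and pathway lists are not reported here by name.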

Additional observations from a re-analysis of the deposited data

Results flagged for a closer look

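In 7 of 78 group-wise checks (39 ISGs in 2 groups), 1 mouse stood apart from the other 5 of its group by a gap that exceeded Dixon's 95% limit for the group's range on the log2 scale. For normal log2 values chance gives about 1 in 20 such checks. The checks here are not independent, since the ISGs share the same 12 mice, so that the count was not compared with that rate. Sham mouse 2 was the highest of its group for Rsad2 (6.77), Ifit1 (8.22) and Oas3 (3.896), and sham mouse 6 was the lowest for Bst2 (3.81). Stroke mouse 5 was the highest of its group for Eif2ak2 (54.5) and the lowest for Usp18 (7.99), and stroke mouse 1 was the highest for Isg15 (9.82).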

How the results depend on the processing

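With 6 mice a group, 37 ISGs and unknown depth, low genes such as Ifit3 are the least certain, and no ISG passed the adjusted threshold under any of the settings tried. Against 5 ISGs higher and 0 lower, 3 were higher after rescaling to 1000000, after that rescaling without immunoglobulin genes and with sample quality weights. That is 8.11% of ISGs, against 2.81%, 2.90% and, with weights, a close 6.36% of all genes higher, with 122, 117 and 650 genes lower. Quantile normalization gave 5 higher ISGs (13.5%, against 3.21% of all genes), with 60.4% of all genes called being higher. Without a filter 1418 of 31890 genes (4.45%) and 7 of 39 ISGs (17.9%) were higher (Gbp3 and Ifit3b added). When 1 mouse had to reach 1, 6 of 38 ISGs (15.8%) were higher, against 4.34% of 18936 genes. With the replicate block 4 ISGs (10.8%) and 930 genes (5.95%) were higher, and 1 ISG (Zbp1) and 508 genes lower. Gbp7 kept its log2 fold change of 0.53 there but was not called (limma p of 0.0678). The labels do not say what a shared number means. Of 6 same-numbered pairs, 5 deviated together with r above 0.1 (from -0.0142 to 0.471, mean 0.206, against -0.0413 for other pairs), and 2 of 6 sham mice correlated best with their own number. Since 1 pair missed 0.1, the numbers were not taken as pairs. Leaving out 1 mouse at a time gave 2 to 6 higher ISGs and 0 to 1 lower, with 472 to 1119 genes higher and 170 to 1302 lower. The Irf7 log2 fold change of -0.04 became 0.0824 and 0.0786 after these rescalings, 0.0702 with weights and 0.33 without sham mouse 2 and stroke mouse 5 (a choice made after seeing the values), and ran from -0.16 to 0.18 when 1 mouse was left out. The cause of these shifts was not tested.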
